A study of Gallus gallus with 6 samples.

Results

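The genes described here are 10 non-collagen genes of the connective tissue matrix, taken by name from a table of 17781 chick genes. They are elastin (ELN), fibrillin 2 (FBN2), fibulin 5 (FBLN5), tenascin C (TNC), periostin (POSTN), SPARC, SVEP1, lumican (LUM), versican (VCAN) and the gelatinase MMP2. The table lists TNC as TENA_CHICK, POSTN as Q6DMS3_CHICK and FBN2 as Q9PUC7_CHICK, and the other 7 under their symbols or their UniProt entry names. They were picked for study with earlier results of the same libraries known, so a shared direction among them is a description of the choice as well as of the tissues.

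The libraries were polyA RNA-seq of mesenchyme taken directly from untreated chick (Gallus gallus) embryos, staged on the Hamburger-Hamilton (HH) scale of chick development. Limb was represented by 3 libraries, from presumptive forelimb at HH15, from hindlimb at HH18 and from forelimb at HH19. Neck and flank, both at HH19, made up the 2 non-limb libraries, and 1 more library carried the label flank and neck at HH19. The title of the flank library gives 9 where its source label gives HH19, and it was taken as HH19. The labels give neither the number of embryos behind a library nor whether embryos were pooled, and each tissue and stage has a single library, so the data hold no replicate error.

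Between 7130877 and 9623046 reads were counted per library, and 3 reads, the limit used for a gene at 0, corresponded to between 0.312 and 0.421 CPM (reads of a gene scaled to a common library total). The labelled mesenchyme was checked with 7 mesenchyme marker genes, which summed to between 792 and 1573 CPM, with none of them at 0 in any library. This sum was itself lower in the limb libraries than in neck and flank. It was 1088 CPM in presumptive forelimb HH15, 792 in forelimb HH19 and 822 in hindlimb HH18, with 1187 in neck and 1573 in flank. VIM, PDGFRA, SNAI2 and THY1 had that order. VIM had 85.3, 254 and 157 CPM in those limb libraries, 363 in neck and 658 in flank. PRRX1, CDH11 and PDGFRB did not have it, and CDH11 was highest, at 378 CPM, in presumptive forelimb HH15. The part of mesenchyme content in the lower limb levels of the matrix genes was not tested. PRRX1, a homeobox gene of limb and flank mesenchyme, had between 117 and 491 CPM, and its lowest level was in the library labelled flank and neck. That library stood apart in other ways. Its 5 globin genes took 0.00446% of the reads, against 4.01% in flank and 0.219% in neck, and ALDH1A2, a retinoic acid synthesis gene, had 13 CPM, against 824 in neck and 1370 in flank. For both the level was not between those of neck and flank. The library was kept out of the limb and non-limb classes, and its values are given separately.

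Connective tissue cells secrete a matrix in which elastic fibres, collagen fibrils, proteoglycans and adhesive glycoproteins are joined. Elastic fibres are built from elastin laid onto fibrillin microfibrils, with fibulin 5 as an assembly factor. Matricellular proteins such as tenascin C, periostin and SPARC bind cells, collagen or other matrix proteins and modify their assembly, while lumican and versican are proteoglycans of collagen fibrils and of the hyaluronan-rich space around cells. MMP2 is a secreted metalloproteinase that cleaves denatured collagen and basement membrane collagen. In the embryo these genes belong to loose mesenchyme and to the tissues it forms, such as dermis, tendon, vessel walls and cartilage.

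Transcripts of all 10 genes were lower in each of the 3 limb libraries than in both neck and flank. Of the 12486 genes tested, 27.5% were lower in limb with no overlap of the libraries. With the class means of log2(CPM + 1) at least 2-fold apart as well, 10 of 10 genes stood against 4.92% of all genes tested. On this scale the median difference of all genes tested, limb minus neck and flank, was -0.14. With values centred on the median gene, 9 of the 10 met the rule, but the share of all genes under centring was not counted. When the 2-fold gap was asked between the nearest limb and non-limb libraries, a rule added after the values were seen, the count was 6 of 10 against 1.05% of all genes. The 6 were TNC, SVEP1, FBLN5, POSTN, FBN2 and LUM. In bulk tissue, fewer cells of a type and less RNA per cell cannot be told apart.

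**Figure D1:**
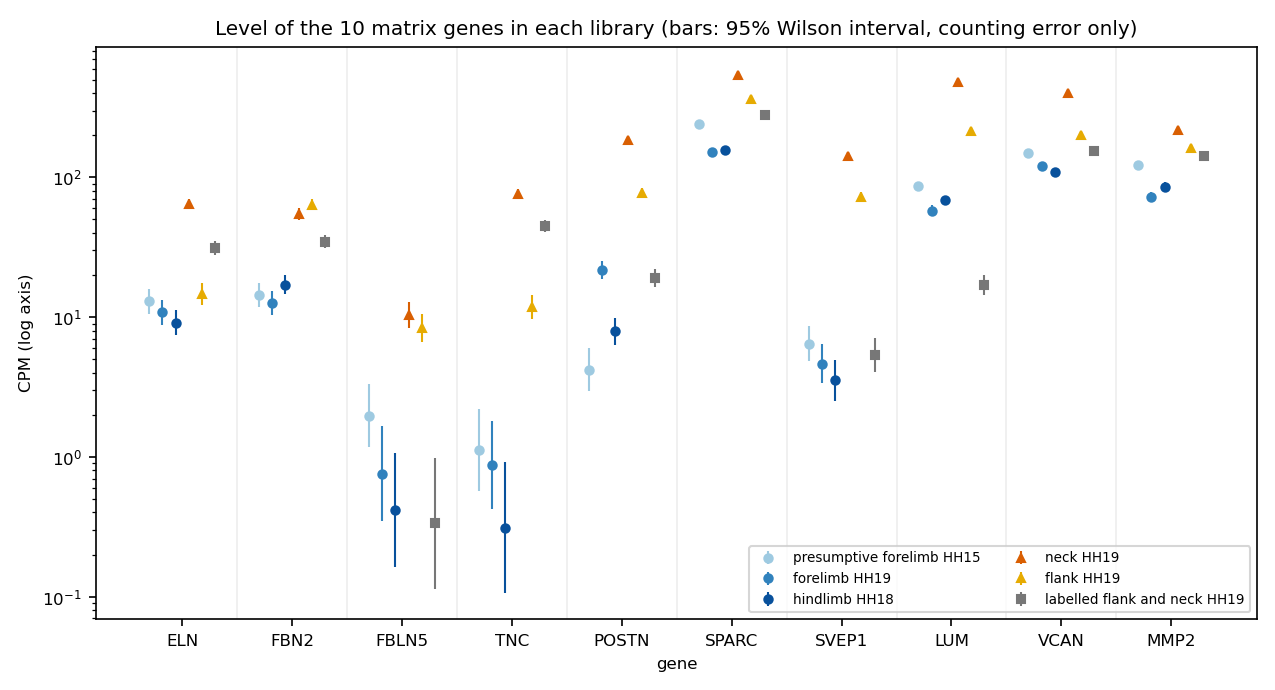
Level of each of the 10 matrix genes (CPM, log axis) in each library, with limb libraries as circles, neck and flank as triangles and the library labelled flank and neck as squares; bars are 95% Wilson intervals, which cover counting error only. For every gene both triangles lie above all 3 circles, by a margin that runs from 11.2-fold for SVEP1 to 1.12-fold for ELN between the nearest libraries, and the square lies far below both triangles for FBLN5, POSTN, SVEP1 and LUM.

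Limb and non-limb counts were then tested by the quasi-likelihood method of edgeR, with Benjamini-Hochberg adjustment over all 12486 genes. No tissue was sequenced more than once at the same stage. The error in this test is thus how far tissues and stages differ within limb, and how far neck differs from flank. Presumptive forelimb HH15 and hindlimb HH18 were younger than neck and flank at HH19, so class and stage cannot be fully told apart. Only 2 of the 10 genes passed an adjusted p of 0.05 in this test, SVEP1 and FBN2, against 0.0801% of all genes lower in limb. At an unadjusted p below 0.05 the count was 10 of 10, against 10.5% of all genes. DESeq2 gave an adjusted p below 0.05 for all 10, against 4.11% of the genes it tested lower in limb. limma gave 2, against 0.224% of all genes. Under edgeR, no gene of the whole table was called without flank, without neck, without hindlimb HH18 or without forelimb HH19, although 9 or 10 of the 10 genes kept an unadjusted p below 0.05 in each of these. Without presumptive forelimb HH15, 8 of the 10 were called, with 2.7% of all genes called lower, so the number of calls moved over the whole table and not for these genes alone. For a single gene, an exact permutation test of 3 libraries against 2 cannot give a one-sided p below 0.1.

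Among the elastic fibre genes, FBN2 encodes the fibrillin that is used mainly before birth, and loss of it in mice fuses digits. FBN2, on chromosome Z, had 14.4 CPM in presumptive forelimb HH15, 12.6 in forelimb HH19 and 17.1 in hindlimb HH18, while neck had 54.8 CPM and flank 63.9. Limb values of other genes are given in this order of libraries. The limb libraries formed a narrow band, 1.36-fold from lowest to highest, and both non-limb libraries lay at least 3.2-fold above it. FBN2 was lower in limb by an edgeR log2 difference of -1.89 ± 0.20 (SE), with an adjusted p of 0.0465, close to the threshold. It was the only one of the 10 genes with its highest level in flank. The 95% intervals of neck (49.9 to 60.1 CPM) and flank (58.7 to 69.6 CPM) overlapped, while that of the neck-to-flank ratio, 0.754 to 0.974, lay below 1. All of these cover counting error only.

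ELN encodes the monomer of elastin and lies on chromosome 19. It had 13, 10.8 and 9.14 CPM in the limb libraries in the same order, 64.4 in neck and 14.6 in flank. Of neck and flank only neck stood clear of limb, for the flank interval of 12.2 to 17.5 CPM overlapped that of presumptive forelimb HH15, 10.6 to 16 CPM. The edgeR log2 difference was -1.67 ± 0.53 with an adjusted p of 0.139, and it was -0.37 without the neck library and -2.35 without flank.

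FBLN5, on chromosome 5, was a low gene throughout. It had 14, 6 and 4 reads in the limb libraries (1.96, 0.754 and 0.416 CPM), against 84 reads in neck and 69 in flank (10.3 and 8.34 CPM). All 3 limb intervals ended at or below 3.3 CPM and both non-limb intervals began at 6.59 CPM or above. By edgeR the log2 difference was -3.06 ± 0.55, with an adjusted p of 0.0643; without presumptive forelimb HH15 it was -3.83, and limma, on log2(CPM + 1), gave -2.40.

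Of the matricellular and adhesion genes, SVEP1 had the smallest adjusted p. SVEP1 encodes a large adhesive protein that binds an integrin and is needed for lymphatic vessels in mice and zebrafish. From chromosome Z, it gave 46, 37 and 34 reads in the limb libraries (6.45, 4.65 and 3.53 CPM), 1167 in neck and 598 in flank (143 and 72.3 CPM). The lowest non-limb library was 11.2-fold above the highest limb library, and the limb libraries differed among themselves by 1.83-fold at most, with overlapping intervals between neighbours. The edgeR log2 difference was -4.32 ± 0.34, with an adjusted p of 0.0299, and only 3 genes of the whole table had a smaller p.

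TNC encodes tenascin C, a multi-armed glycoprotein of tendon, perichondrium and sites of cell migration. From chromosome 17, TNC gave 8, 7 and 3 reads in limb, in the same order of libraries (1.12, 0.88 and 0.312 CPM), against 622 in neck and 98 in flank (76.4 and 11.8 CPM). It was nearly undetected in limb, with hindlimb at the 3-read limit, and neck was 6.45-fold above flank. Its edgeR log2 difference, -5.68 ± 0.87, was the largest of the 10, and the adjusted p was 0.0561. Without the neck library the difference was -3.91 and without flank -6.45, and limma gave -4.18. A second entry inside the TNC locus, Q90996_CHICK, a tenascin fragment, held 30 reads in neck, 1 in flank and 0 in each limb library, and adding them to TNC left 2 of the 10 genes called.

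POSTN encodes periostin, which binds collagen and takes part in its cross-linking in periosteum, tendon and valves. From chromosome 1, POSTN had 4.21, 21.7 and 7.9 CPM in limb, with 186 CPM in neck and 77.4 in flank. It was the most variable of the 10 within limb, 5.17-fold from presumptive forelimb to forelimb HH19, yet flank was still 3.56-fold above the highest limb library. Its edgeR log2 difference was -3.36 ± 0.69, with an adjusted p of 0.0732. It was -4.28 without forelimb HH19 and -2.71 without neck.

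SPARC, a calcium- and collagen-binding glycoprotein on chromosome 13, had 241, 152 and 157 CPM in limb, with 542 CPM in neck and 366 in flank. The gap was smaller than for the other 3 genes of its role, 1.51-fold between the nearest libraries. SPARC differed by -1.17 ± 0.22 on the edgeR log2 scale, with an adjusted p of 0.0654.

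Both proteoglycan genes were lower in all 3 limb libraries without passing the edgeR threshold. Lumican, a small leucine-rich proteoglycan that sets the spacing of collagen fibrils in cornea and dermis, is encoded by LUM on chromosome 1. LUM had 86.1, 57.7 and 68.7 CPM in limb, with 480 CPM in neck and 216 in flank, a 2.51-fold gap between the nearest libraries. No 2 libraries next to each other in its order of levels had overlapping intervals. By edgeR LUM differed by a log2 value of -2.15 ± 0.30, with an adjusted p of 0.0555.

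VCAN encodes versican, a large proteoglycan that binds hyaluronan and is known in chick limb buds from the condensing cartilage cores. From chromosome Z, VCAN had 149, 121 and 110 CPM in limb, with 402 CPM in neck and 202 in flank. Flank was nearer to the limb libraries than to neck, 1.36-fold above presumptive forelimb HH15. The edgeR log2 difference was -1.10 ± 0.25 with an adjusted p of 0.0856, and without the neck library it was -0.63.

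MMP2, on chromosome 11, showed the smallest difference of the 10. It had 122, 72.8 and 85.8 CPM in limb, with 217 CPM in neck and 162 in flank, 1.32-fold apart at the nearest. Its log2 difference by edgeR was -0.89 ± 0.21, with an adjusted p of 0.0884.

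Over the 10 genes the median edgeR log2 difference was -2.02, where the median of all genes tested was -0.02. The range by role was wide. The 3 elastic fibre genes had a median of -1.89, the 4 matricellular and adhesion genes -3.84 and the 2 proteoglycan genes -1.62. Of the 10 genes, 3 are on chromosome Z, FBN2, SVEP1 and VCAN, and this chromosome carried 4.49% of the genes tested, whose median edgeR log2 difference was -0.18, against -0.01 elsewhere. The sex of the embryos is not in the labels, and the part of chromosome Z dosage in the differences of these genes was not tested.

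**Figure D2:**
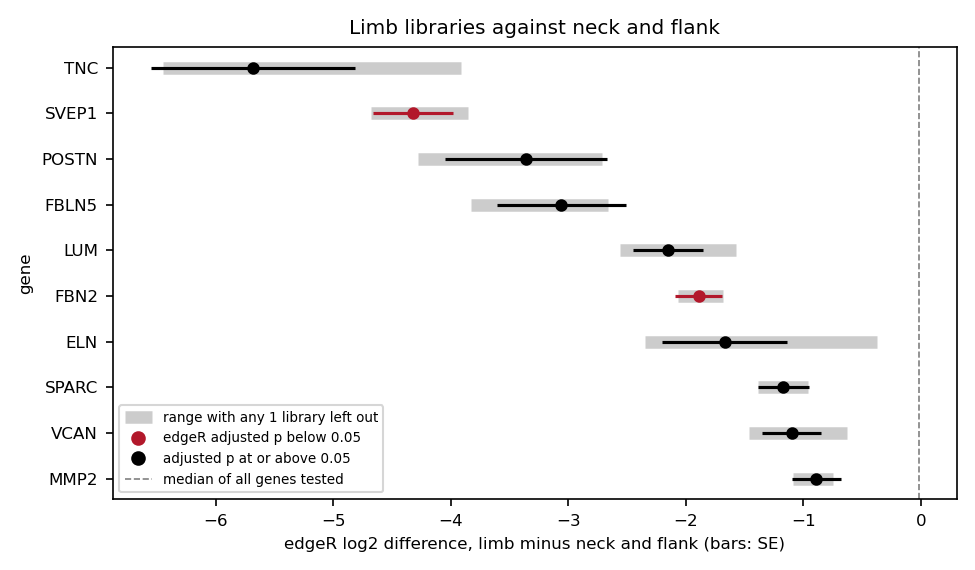
edgeR log2 difference of each gene, limb minus neck and flank (points, with SE bars), with the range when any 1 library was left out in grey and the median of all genes tested as a dashed line. SVEP1 and FBN2, in red, had adjusted p below 0.05; no grey range crosses 0, and that of ELN runs from -2.35 to -0.37.

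Neck and flank, set side by side to ask how the non-limb tissues differed, did not contribute equally. The neck library held the highest level of all 6 libraries for 9 of the 10 genes, as it did for 30.3% of all genes. Of the 10 genes, 4 were at least 2-fold higher in neck than in flank on the log2(CPM + 1) scale, against 5.15% of the genes compared. These were TNC, ELN, POSTN and LUM, with neck-to-flank CPM ratios of 6.45 (95% exact interval 5.21 to 8.07), 4.4 (3.61 to 5.41), 2.41 (2.2 to 2.65) and 2.22 (2.1 to 2.35). VCAN at 1.99-fold and SVEP1 at 1.98-fold were just under the threshold, and SPARC and MMP2 at 1.48-fold and 1.34-fold had intervals above 1. FBLN5, at 1.24-fold, had an interval of 0.889 to 1.73 that included 1. FBN2 alone was lower in neck, at 0.857-fold, with an interval of 0.754 to 0.974. The intervals cover counting error between 2 libraries and say nothing of the spread between embryos.

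Markers of other cell types also differed between neck and flank. The 8 endothelial markers summed to 190 CPM in neck, 83.5 in flank and 68.9 to 75.9 in the limb libraries, with none at 0 in any library. The 5 cartilage and sclerotome markers summed to 145 CPM in neck, 67.4 in flank and 24.7 to 54.3 in limb, with COL2A1 the largest part of the sum in each. SOX9, ACAN and MATN1 did not share this order. SOX9 had 4.79 CPM in neck and 6.41 in forelimb HH19. ACAN and MATN1 had 0.737 and 0.123 CPM in neck, and 0.982 and 0.841 in presumptive forelimb HH15. The 5 neural tube and neuron markers summed to 409 CPM in neck and 137 to 156 CPM in flank and limb. NES supplied 355 CPM of the neck value, and the others did not share its order. ELAVL4 had 26.4 CPM in neck, 21.9 in flank and 30.4 to 37.1 in limb. DCX had 27.5 CPM in neck, 53.2 in flank and 3.74 to 13.9 in limb. SOX2 was at or below 0.28 CPM and PAX6 at or below 0.14 CPM in every library. The part of these cells in the higher neck levels of the matrix genes was not tested.

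Other marker lists had orders of their own. The 8 coelomic lining markers summed to 946 CPM in neck and 1689 in flank, and to 177 to 802 in limb, with UPK3B at 0 in all 6 libraries. ALDH1A2 alone supplied 824 CPM of the neck sum and 1370 CPM of the flank sum. ALDH1A2, WT1 and TCF21 were lower in every limb library than in neck and flank, while HAND2, TBX18, GATA4 and MSLN were not. HAND2 had 134 to 262 CPM in limb, 81.1 in neck and 311 in flank. The 7 surface epithelium markers summed to 185 and 243 CPM in neck and flank, 283 in presumptive forelimb HH15, and 43.2 and 42 in forelimb HH19 and hindlimb HH18. The 7 blood markers summed to 40107 CPM in flank and 2218 in neck. In limb they summed to 790 CPM in presumptive forelimb HH15, 2944 in forelimb HH19 and 4460 in hindlimb HH18. The 6 somite and muscle precursor markers summed to 3.23 to 32.5 CPM and the 5 neural crest markers to 1.45 to 51 CPM, with SOX10 at or below 0.421 CPM. The part of these cells in the matrix gene levels was not tested. Leaving the globin genes out of the counts gave 2 of 10 genes called, as before, but this left other transcripts of blood cells in the counts.

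The limb libraries were set against each other for stage and limb type. From presumptive forelimb HH15 to forelimb HH19, POSTN was 5.17-fold higher (95% exact interval 3.49 to 7.89), from 30 to 173 reads, and it was the only one of the 10 that was at least 2-fold higher, against 3.43% of the genes compared. The other 9 had CPM ratios under 1. For 4 of them, MMP2 at 0.596, SPARC at 0.631, LUM at 0.67 and VCAN at 0.814, the interval lay below 1. For the remaining 5, ELN, FBN2, FBLN5, TNC and SVEP1, it included 1. None of the 9 was at least 2-fold lower on the log2(CPM + 1) scale. The intervals cover counting error only, and the share of all genes with a ratio or an interval below 1 was not counted.

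POSTN also parted the later buds. It was lower in hindlimb HH18 than in forelimb HH19 at 0.363-fold (0.274 to 0.478), the only one of the 10 at least 2-fold lower, against 2.24% of the genes compared. FBN2, LUM and MMP2 were higher in hindlimb by 1.36-fold, 1.19-fold and 1.18-fold with intervals above 1, and VCAN was lower at 0.906-fold with an interval that ended at 0.989. These small differences are between single libraries, with intervals for counting error only. How many of all genes had such intervals was not counted. FBLN5 and TNC were below 1 CPM in both buds and were not compared. The buds differ in stage as well as in limb type, and these cannot be told apart here.

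The library labelled flank and neck split the 10 genes. For 8 of them its level lay below both neck and flank, as it did for 48.3% of all genes compared, and for 2 it lay between them, as for 18.9% of all genes. It lay above both for none of the 10, as it did for all the remaining genes compared. At least 2-fold below both were 4 genes, against 5.64% of all genes.

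Those 4 genes were at or below the level of limb. SVEP1 had 5.38 CPM in this library (48 reads), inside the limb range of 3.53 to 6.45 CPM, and was 0.0375-fold its neck level (0.0275 to 0.0501) and 0.0744-fold its flank level. POSTN had 18.9 CPM, also inside the limb range, 0.102-fold neck and 0.245-fold flank. LUM had 17 CPM (14.5 to 20), below the lowest limb library at 57.7 CPM, and FBLN5 had 3 reads, or 0.336 CPM, where 69 or more were counted in neck and in flank.

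TNC and ELN behaved differently in the same library. TNC had 44.9 CPM (401 reads), between 11.8 in flank and 76.4 in neck, 3.79-fold flank (3.03 to 4.78) and 51.1-fold forelimb HH19 (24.6 to 128). ELN had 31.3 CPM, between 14.6 and 64.4, 2.14-fold flank (1.72 to 2.67). The remaining 4 genes, FBN2 at 34.7 CPM, SPARC at 281, VCAN at 155 and MMP2 at 141, were below both non-limb libraries by less than 2-fold from the nearer one, and above all 3 limb libraries. The interval of VCAN, 147 to 164 CPM, overlapped that of presumptive forelimb HH15. For the position of this library against the limb libraries, the share of all genes was not counted.

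In counts, 6 of the 10 genes were at least 2-fold lower in this library than in neck, against 11.4% of genes, and 4 were lower than in flank, against 8.43%. TNC and ELN were at least 2-fold higher than in flank, against 8.91% of genes. Compared with forelimb HH19, 3 genes were at least 2-fold higher, TNC, ELN and FBN2, against 10.5% of genes, and LUM was lower at 0.295-fold, against 4.65%. The comparisons share the 1 library labelled flank and neck. In this library SOX9 had 40.2 CPM, against 6.41 CPM or less in the other 5, NGFR 46.3 CPM, against 35.3 in neck and 1.09 in flank, and TBX18 122 CPM, against 46.9 CPM or less elsewhere. These 3 genes were chosen from the marker lists after their values were seen, and their part in the split was not tested. Other genes of the same lists mostly did not follow them. COL2A1, listed with SOX9, had 46.3 CPM here, against 138 in neck and 63.8 in flank. Of the genes listed with TBX18, ALDH1A2 and WT1, at 13 and 0.224 CPM, were below both neck and flank. Of those listed with NGFR, SOX10 had 0 CPM, while TFAP2B, at 4.37 CPM, was also highest in this library.

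**Figure D3:**
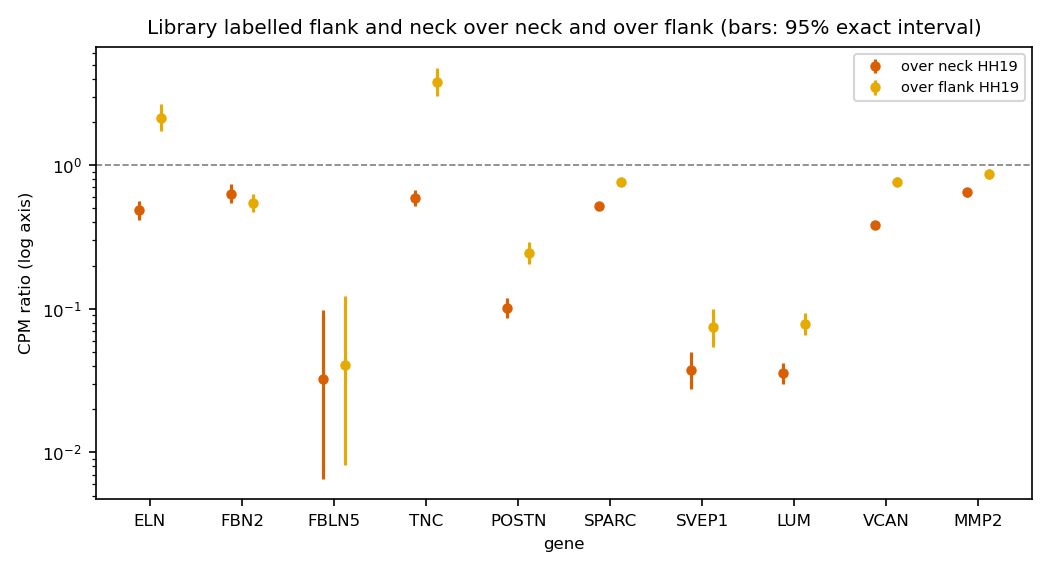
CPM ratio of the library labelled flank and neck over neck HH19 and over flank HH19 for each gene (log axis; bars are 95% exact intervals for counting error; dashed line at 1). TNC and ELN are below 1 against neck and above 1 against flank, at 3.79 and 2.14; FBLN5, POSTN, SVEP1 and LUM are below 0.25 against both.

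Across the 6 libraries, the 10 genes varied together to different degrees. Pearson's r of log2(CPM + 1) over the 45 pairs of them ran from 0.25 to 0.99 with a median of 0.83, and 9 pairs reached 0.9. LUM, with a median r of 0.64 to the other 9, and ELN, with 0.69, were the least like the rest; SPARC, SVEP1 and VCAN, each at 0.86, were the most. The points share the same 6 libraries, which differ in class, stage and depth, and the values carry no test. All 10 genes were lower in limb than in neck and flank, and this shared direction is part of each r. No r of pairs among other genes was taken for comparison.

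Of 5215 named genes with a mean of at least 10 CPM, the 3 with the highest r were listed for each of the 10. None of those 30 places went to one of the 10 themselves, though FBLN5 was below that mean and could not take a place. An r picked as the highest of so many over 6 libraries is high in part through the choice. The closest to FBN2 were ZC3H7B (r = 0.996), HVCN1 (0.993) and TWIST2 (0.991), the last a transcription factor of dermal mesenchyme. TWIST2 had 18.2, 15.2 and 18.8 CPM in the limb libraries, 67 in neck and 66 in flank; the library labelled flank and neck had 46.6 CPM, between limb and the other 2 as for FBN2. The closest to SVEP1 were FAIM (0.994), RMND1 (0.991) and TEAD1 (0.988), all low in the library labelled flank and neck as SVEP1 was. TEAD1, a transcription factor of the Hippo pathway, had 22.7 to 26.1 CPM in limb, 40.7 in neck, 34.6 in flank and 24.8 in that library, so that its range was much narrower than that of SVEP1.

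The best match was KIF13B for TNC (0.985), PLXNA1 for ELN (0.99), TNRC6B for FBLN5 (0.992), DPAGT1 for POSTN (0.982), B4GALNT4 for SPARC (0.994), GLYR1 for LUM (0.995), UGP2 for VCAN (0.997) and PTPN21 for MMP2 (0.997). Several of these varied far less than the gene they matched. GLYR1, for example, ran from 89.6 to 154 CPM where LUM ran from 17 to 480 CPM. All r values are over 6 libraries.

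Other non-collagen matrix genes were taken from 5 lists, chosen like the 10 genes with earlier results known. Of 107 genes listed, 87 were found in the table and 69 were tested. Lower levels in limb were common among them but smaller. By edgeR 54 of the 69 had a log2 difference below 0, with a median of -0.82, against 6435 of 12486 genes and a median of -0.02. None of the 69 passed an adjusted p of 0.05 by edgeR, while 23 lower and 3 higher passed an unadjusted p of 0.05, against 10.5% lower and 12.9% higher over all genes. DESeq2 called 10 lower and 1 higher after adjustment, where it called 4.11% of all genes lower and 7.5% higher. Without overlap and at least 2-fold apart were 18 genes lower in limb and 2 higher, against 4.92% and 1.23% of all genes.

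Among 13 elastic fibre genes besides the 3 above, 11 were below 0 and the median log2 difference was -0.78. LTBP1, which holds latent TGF-beta in microfibrils, had 81.8, 55.9 and 30.9 CPM in the limb libraries, 252 in neck and 235 in flank, with an edgeR log2 difference of -1.99 ± 0.35 and an adjusted p of 0.0635. Like FBN2, it was about as high in flank as in neck. LTBP2 had 25.9 CPM in neck, 2.78 in flank and 0.561 to 2.51 in limb, with an adjusted p of 0.127. As for ELN, flank was close to limb, and the library labelled flank and neck, at 7.73 CPM, lay between flank and neck. EFEMP1, another fibulin, reached 1.84 CPM at most and was close to the limit of detection.

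The 7 small leucine-rich proteoglycans besides LUM all had log2 differences below 0, with a median of -1.13. PRELP had 3.23, 1.51 and 1.77 CPM in limb, 19.2 in neck and 7.74 in flank, with an adjusted p of 0.0649. KERA, which encodes the corneal proteoglycan keratocan, had 43.6 CPM in neck, 12 in flank and 3.93, 4.52 and 15.1 in limb, and 0.896 CPM in the sixth library. FMOD, fibromodulin, reached 2.54 CPM at most, in flank. DCN, decorin, lies near LUM on chromosome 1 and was looked at after its values were seen. It had 54.9 CPM in neck, within the limb range of 34.8 to 93.3 CPM, and 145 CPM in flank, so it did not share the order of LUM; like LUM it was lowest, at 20.4 CPM, in the library labelled flank and neck.

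All 5 hyaluronan and large proteoglycan genes besides VCAN had log2 differences below 0, with a median of -1.18. HAS2, the main hyaluronan synthase of embryonic mesenchyme, had 24.8, 17.1 and 12.1 CPM in limb, 56 in neck and 93.4 in flank, with an edgeR log2 difference of -1.96 ± 0.36 and an adjusted p of 0.0645. HAPLN1, the link protein that ties versican to hyaluronan, had 96.8 CPM in presumptive forelimb HH15, 30.7 and 14.2 in the later buds, 97.6 in neck and 130 in flank. The limb libraries thus reached the neck level at HH15 for HAPLN1, whereas VCAN in presumptive forelimb was well below neck. BCAN reached 1.6 CPM at most.

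The 26 other matricellular and glycoprotein genes held both directions, 18 below 0 and 8 above, with a median of -0.85. EDIL3, an integrin-binding glycoprotein, had 2.38, 0.88 and 0 CPM in limb, 17 in neck and 9.43 in flank, with an edgeR log2 difference of -3.52 ± 0.94 and an adjusted p of 0.108. Its order was close to that of FBLN5, with 0.224 CPM in the library labelled flank and neck. NOV reached 1.6 CPM at most, in neck. TNN, tenascin N, had 1.4 CPM in presumptive forelimb HH15 and 0.123 CPM or less in every other library.

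Of the 18 proteinases and inhibitors besides MMP2, 13 were below 0 and 5 above, with a median of -0.72. ADAMTS9, a proteinase that cleaves versican, had 53.4, 25.3 and 8.21 CPM in limb, 176 in neck and 41.7 in flank, with an adjusted p of 0.241. The limb and non-limb libraries overlapped for this gene. MMP17, a membrane-anchored metalloproteinase, ran the other way, with 30.2, 38.1 and 76.1 CPM in limb, 3.93 in neck and 26 in flank, an edgeR log2 difference of 1.77 ± 0.82 and an adjusted p of 0.253. MMP28 reached 1.81 CPM at most.

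**Figure D4:**
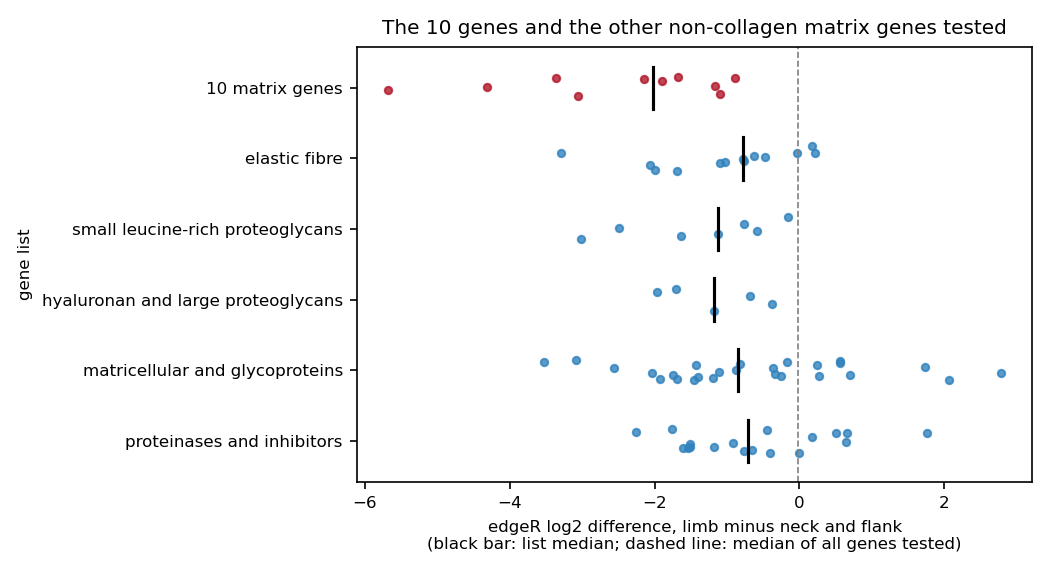
edgeR log2 difference, limb minus neck and flank, of the 10 genes (red) and of the tested genes of 5 other matrix lists (blue); black bars are list medians and the dashed line is the median of all genes tested. The 10 genes lie between -5.68 and -0.89 with a median of -2.02, and the list medians lie between -1.18 and -0.72, with single genes on both sides of 0 in 3 of the 5 lists.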

How the data were processed

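One library was sequenced for each of 6 tissues and stages. The reads columns of the table deposited by the authors are counts per gene, and its normalised columns deposited by the authors are CPM, recomputed here from the counts with a largest difference of 4.9e-11. Per the submitters' processing notes, TopHat 1.4.0 and the build galGal4 are named, with no role given; the read counter, the annotation and strand handling are not given in the sources used here. The deposited fold and p-value columns were not used. Initials and stage tied 1 column to the library labelled flank and neck, and 0 per-sample columns were unused. A name was available for 10202 genes, of which 1224 came by protein accession from a RefSeq table.

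Genes reaching 1 CPM in any library of a comparison were tested with edgeR 4.0.16 (quasi-likelihood, TMM, two-sided, Benjamini-Hochberg over all 12486 genes, adjusted p below 0.05); a common biological coefficient of variation of 0.283 was estimated. The SE given with an edgeR log2 difference is the size of that difference divided by the square root of its F statistic. The test script was checked on simulated counts with no tissue or stage differences within a class. That check does not cover such differences in these data. Alternatives were DESeq2 1.42.0, its size factors or library totals only within edgeR, limma 3.58.1, and other filters, folds and pseudocounts. The library labelled flank and neck was also added to non-limb or made a class of its own, and each library was left out. Single libraries were compared on log2(CPM + 1), counted at 2-fold, with no test. CPM intervals are Wilson and ratio intervals exact binomial, at 95%, for counting error only. CPM are not per length, so levels of different genes, also within the marker sums, are not on one scale. Software also included matplotlib 3.10.9, scipy 1.17.1, pandas 2.3.3, numpy 2.4.6, Python 3.11.15 and R 4.3.3.

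The 10 genes, the other lists and the markers were chosen with earlier results of these data known. Named genes are the 10, up to 3 with the largest difference in each of the 5 other lists, and the 3 most alike for each of the 10; exceptions are stated.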

Additional observations from a re-analysis of the deposited data

How the results depend on the processing

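All 10 genes had a log2 difference below 0 under every alternative run, and 8 to 10 of them had an unadjusted p below 0.05. The number past the adjusted threshold, 2 by edgeR, was not stable. It was 1 with DESeq2 size factors (0.0721% of all genes called lower), 10 by DESeq2 (4.11%), 7 with no filter on low counts (0.712%), 0 with the library labelled flank and neck added to the non-limb class (0%) and 1 with all 6 libraries in 3 classes (0.0393%). Leaving out 1 library gave 0 to 8, with 8 without presumptive forelimb HH15 (2.7%) and 0 without any one of the other 4 (0%). The count of the 10 genes thus often moved with that of the whole table, but not always. It stayed at 2 with library totals only (0.176%) and by limma (0.224%), against 0.0801% in the main fit. SVEP1 was called in 10 of 15 alternatives, with adjusted p from 8.13e-29 to 0.172, and FBN2 in 8, from 1.69e-10 to 0.172. For no overlap and 2-fold apart, the share of all genes was counted under the main rule (4.92%) and between the nearest libraries (1.05%) only. Under the other settings of this count, and of the single-library counts below, it was not counted, so those counts cannot be read against it. The count of 10 with no overlap and 2-fold apart was 5 at 4-fold, 4 with the sixth library added to non-limb and 6 between the nearest libraries. It was 9 when centred on the median gene, 9 without forelimb HH19 and 9 without hindlimb HH18. With flank as the only non-limb library it was 7, and with neck as the only one it was 10. From presumptive forelimb to forelimb HH19, 1 gene was at least 2-fold apart in either direction. That count was 2 at a pseudocount of 0.1 and 4 at 1.5-fold, and the genes added were lower in forelimb HH19. At 1.5-fold these were FBLN5, MMP2 and SPARC, with log2(CPM + 1) differences of -0.76, -0.74 and -0.66, so POSTN remained the only gene counted as higher. The 6 lower in the library labelled flank and neck than in neck became 10 at 1.5-fold. Of the 69 other matrix genes, 0 were called lower by edgeR, 23 at an unadjusted p, 10 by DESeq2 and 0 to 14 with 1 library left out (14 without presumptive forelimb HH15); 0 were called higher, 3 at an unadjusted p and 1 by DESeq2. The cause of these shifts was not tested. FBLN5 and TNC rest on 3 to 14 reads in each limb library, which limits their folds.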
